A study of Mus musculus with 12 samples.

Results

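Type I interferon response genes are the genes that cells switch on when interferon alpha or beta reaches them. The 37 genes considered here were given as a list of sensors, transcription factors, antiviral effectors and antigen-processing genes, and were found by their symbol in the annotation of the array. A probe set was present for 35 of the 37, with 1 probe set for each gene, among 21212 probe sets on the array, of which 18786 carry exactly 1 symbol. Isg15 and Ifi44 had no row under their symbol and were not analysed here.

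The data were 12 Affymetrix whole-transcript arrays of liver, 1 per mouse, from 3 females and 3 males of C57BL/6J and 3 females and 3 males of KK. C57BL/6J is a widely used inbred laboratory strain, and KK mice are a model of obesity with diabetes. The KK mice are labelled KK/HIJ in one field and KK/J in another, and are called KK throughout. Mice of all 4 groups were fed chow, were 8 weeks old, spent 3 days in single housing and were fasted for 4 hours. No mouse carried a stated transgene or received a stated treatment, so these are levels in livers that no label describes as infected or given interferon. The samples of a group are numbered in the labels without a statement that each came from its own litter or experiment, and p-values measure only the spread between these samples.

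In the classical pathway, interferon alpha and beta bind a shared receptor whose kinases activate STAT proteins. Activated STAT proteins pair with Irf9 and enter the nucleus, where they bind a short sequence, the interferon-stimulated response element, before the responding genes. Many of the products feed back on the pathway: Irf7 drives interferon genes, Ifih1 senses viral RNA, and Usp18 dampens the receptor. In the liver, hepatocytes and the resident macrophages, the Kupffer cells, both carry the receptor and both can respond.

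The response element was searched by its core, the letters GAAANNGAAA on either strand, in the 250 bases before each start in the promoter windows of RefSeq (mouse build GRCm38.p6). Windows were found for 27 of the 37 listed genes, and 10 of the 27 (37%) held the core, against 3.46% of the 27025 genes with a window. Those 10 were Stat2, Isg15, Oas1a, Oas1g, Oas3, Ifit1, Ifit3, Rsad2, Bst2 and Trim30a. The GAS element, the letters TTCNNNGAA that STAT dimers bind, was held by 5 of the 27 (18.5%), against 8.13% of all genes with a window. Its search letters and those of the response element can overlap, as they did before Bst2. These are matches of letters in the reference sequence, which is that of C57BL/6J, and the KK sequence was not analysed here.

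Windows of 100 bases are shown for 3 genes that were lower in KK (Ifit1, Rsad2 and Bst2) and for 2 that did not pass the test between the strains (Oas1g and Stat2), so that the element can be seen in both kinds. All lie before the start site, read 5′ to 3′ along the gene, and capitals mark the core. The Ifit1 window is chr19:34640749-34640848 on the plus strand, that of Rsad2 is chr12:26456518-26456617 on the minus strand, and that of Bst2 is chr8:71537545-71537644 on the minus strand. The Oas1g window is chr5:120887614-120887713 on the minus strand and that of Stat2 is chr10:128270248-128270347 on the plus strand.
Ifit1: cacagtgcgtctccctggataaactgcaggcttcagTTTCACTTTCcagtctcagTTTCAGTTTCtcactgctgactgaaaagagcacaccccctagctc
Rsad2: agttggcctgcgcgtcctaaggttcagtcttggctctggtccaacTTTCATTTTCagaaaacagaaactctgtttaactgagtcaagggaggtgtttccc
Bst2: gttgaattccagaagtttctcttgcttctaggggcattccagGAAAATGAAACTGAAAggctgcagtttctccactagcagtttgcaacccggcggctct
Oas1g: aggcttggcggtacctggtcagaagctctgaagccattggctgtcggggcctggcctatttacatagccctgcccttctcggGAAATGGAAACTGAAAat
Stat2: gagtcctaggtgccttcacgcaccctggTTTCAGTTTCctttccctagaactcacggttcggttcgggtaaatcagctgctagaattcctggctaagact
The core occurs at 2 places in the Ifit1, Bst2 and Oas1g windows, where those of Bst2 and Oas1g overlap, and at 1 place in those of Rsad2 and Stat2.

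Values are deposited log2 expression values, on which a difference of 1 is a doubling. All comparisons are from 1 limma fit of the 12 arrays over all probe sets, and a difference is called where its p-value, adjusted by Benjamini and Hochberg over all probe sets, lies under 0.05. The arrays were alike overall: mice of 1 group correlated at 0.992 to 0.996 across probe sets. Xist lay at 10.29 or above in females and at 4.70 or below in males, and the mean of 7 hepatocyte genes lay between 13.24 and 13.37 in all mice, as the sex and tissue labels state. No detection calls were available. Y-linked probe sets lay at 3.79 to 4.66 in females, which lack the Y chromosome, and a value in that range may be background. Different probe sets respond differently, so the level of one gene is not set against that of another.

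Over both sexes, 14 of the 35 interferon response genes were called lower in KK than in C57BL/6J liver, while 6.31% of all probe sets were called lower. None was called higher in KK, while 5.42% of all probe sets were, and none was higher at an unadjusted p under 0.05. The median log2 difference over the 35 genes was -0.32, beside 0.01 over all probe sets, and 32 of the 35 differences were negative, while 53.2% of all probe sets had a positive one. In 5 genes (Usp18, Bst2, Rsad2, Ifih1 and Parp9) all 6 KK mice lay below all 6 C57BL/6J mice, which held for 3.32% of all probe sets. In no gene did all 6 KK mice lie above, which held for 2.66%. The 35 genes were chosen with earlier results of these data known, so their contrast with all probe sets is not an independent test.

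**Figure D1:**
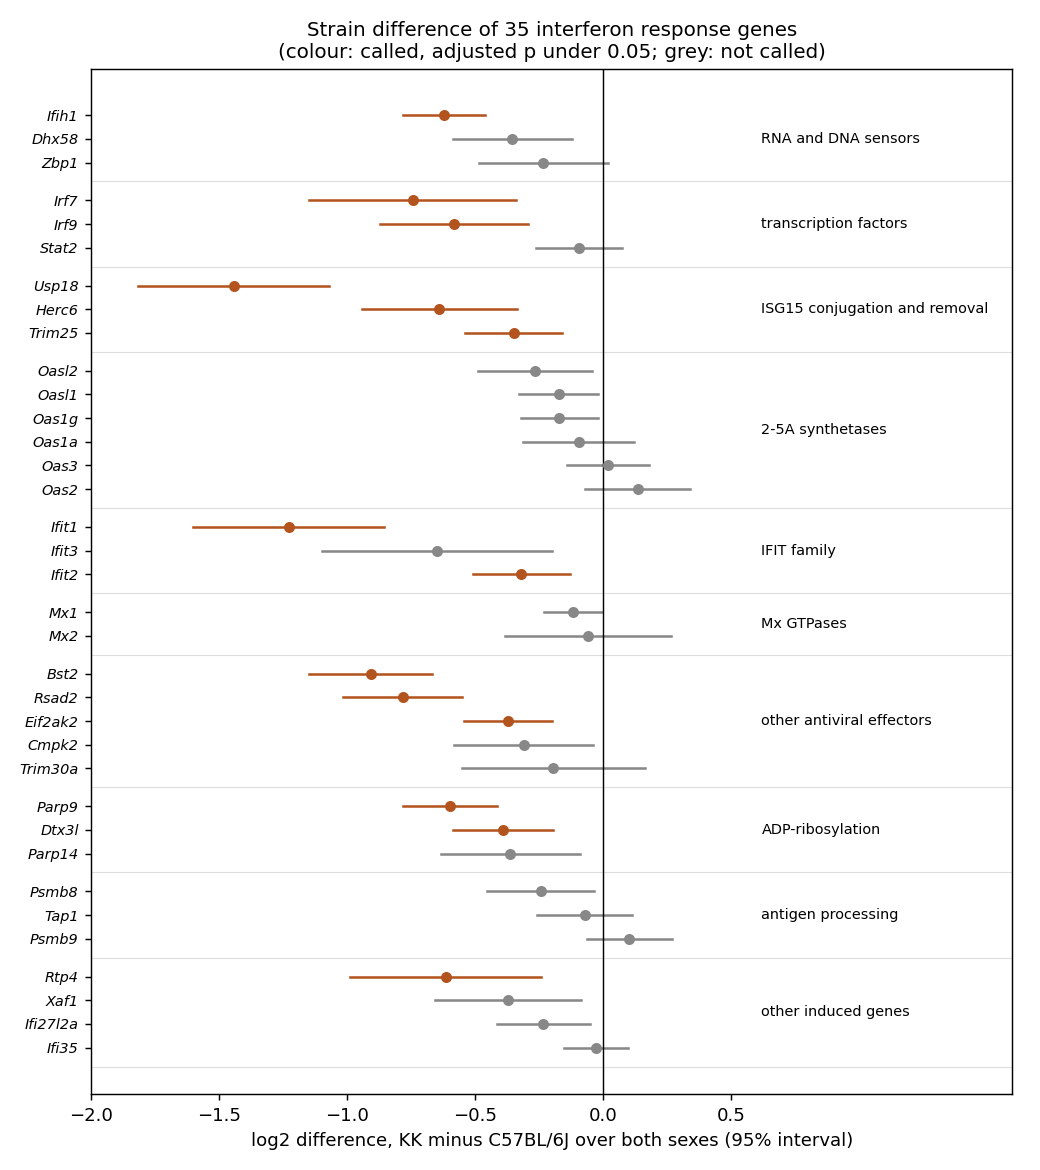
Log2 difference, KK minus C57BL/6J over both sexes, of the 35 genes grouped by role (points, with 95% intervals from the limma fit of 12 mice; coloured where called at an adjusted p under 0.05). The differences reach from -1.44 for Usp18 to 0.14 for Oas2, and no oligoadenylate synthetase, Mx or antigen-processing gene is called.

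Of the listed genes that act on ISG15, a ubiquitin-like protein made after interferon that is attached to other proteins, the 3 with a probe set (Usp18, Herc6 and Trim25) were called lower in KK. Usp18, the protease that removes ISG15 and also blocks signalling at the interferon receptor, had the largest difference of the 35 genes. Its log2 values were 7.76, 7.72 and 8.05 in C57BL/6J females, 6.94, 8.26 and 7.63 in C57BL/6J males, 6.61, 6.66 and 6.50 in KK females and 5.79, 6.06 and 6.09 in KK males. The strains did not overlap, the highest KK mouse being a female at 6.66 and the lowest C57BL/6J mouse a male at 6.94. The difference over both sexes was -1.44 (SE 0.17, limma adjusted p = 0.000144), which is 2.72-fold lower in KK. Herc6, the main ligase for ISG15 in mice, measured 7.87, 7.58 and 7.72 in C57BL/6J females, 6.99, 7.62 and 7.35 in C57BL/6J males, 7.35, 7.05 and 7.26 in KK females and 6.12, 6.54 and 6.96 in KK males. The strains overlapped, since C57BL/6J male 1 lay below all 3 KK females, and the difference of -0.64 (SE 0.14) had a limma adjusted p of 0.00961. Trim25, a ubiquitin ligase of the RIG-I sensor that also acts on ISG15, differed by -0.35 (SE 0.09, limma adjusted p = 0.0205). Outside the list, Uba7, the first enzyme of ISG15 attachment, was called lower (-0.47, SE 0.08, limma adjusted p = 0.00263), and Ube2l6, which takes ISG15 over from it, was not (-0.12, SE 0.07, limma adjusted p = 0.333); both were chosen after their values were seen. The Trim25 call was lost (limma adjusted p up to 0.0563) without C57BL/6J female 3, C57BL/6J male 2 or 3, or KK male 1.

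In the IFIT family, whose proteins bind viral RNA and hold back its translation, 2 of 3 genes were called lower. Ifit1 measured 7.18, 7.06 and 7.26 in C57BL/6J females, 6.16, 7.43 and 6.71 in C57BL/6J males, 6.20, 6.03 and 5.96 in KK females and 5.32, 5.19 and 5.71 in KK males. Only KK female 1 at 6.20 reached above a C57BL/6J mouse, male 1 at 6.16. The difference was -1.23 (SE 0.17, limma adjusted p = 0.000476), 2.34-fold lower in KK. Ifit2 differed by -0.32 (SE 0.09, limma adjusted p = 0.0325), a call that was lost without any of 7 mice, with limma adjusted p up to 0.0849. Those 7 were C57BL/6J females 1 and 3, C57BL/6J male 2, KK females 1 and 3, and KK males 1 and 2. The KK values of Ifit2, at 4.66 to 5.11, lay close to the range of Y-linked probe sets in females (3.79 to 4.66). Ifit3 had a larger difference than Ifit2 but a wider spread, at -0.65 (95% interval -1.10 to -0.20), and missed the threshold (limma adjusted p = 0.0653). Ifit3 measured 6.55, 6.47 and 6.70 in C57BL/6J females and 5.22, 6.52 and 6.21 in C57BL/6J males. In KK it measured 5.90, 6.30 and 5.69 in females and 5.21, 4.93 and 5.76 in males, so that the lowest C57BL/6J male lay among the KK males. Ifit2 and Ifit3 are neighbours in the RefSeq gene order, and Ifit1 lies 3 protein-coding genes further on.

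Among the other antiviral effectors, 3 of 5 were called lower. Bst2, or tetherin, which holds budding virus at the cell surface, measured 9.75, 9.26 and 9.81 in C57BL/6J females, 9.34, 9.83 and 9.48 in C57BL/6J males, 8.67, 8.98 and 8.66 in KK females and 8.52, 8.53 and 8.68 in KK males. The strains were apart in both sexes, and the difference was -0.91 (SE 0.11, limma adjusted p = 0.000172), which leaves 53.3% of the C57BL/6J level. Rsad2, or viperin, an enzyme whose product stops viral RNA synthesis, measured 6.71, 6.29 and 6.70 in C57BL/6J females, 6.32, 7.00 and 6.61 in C57BL/6J males, 5.99, 5.81 and 5.88 in KK females and 5.71, 5.77 and 5.76 in KK males. All 6 KK mice lay within 5.71 to 5.99, below the lowest C57BL/6J mouse at 6.29, and the difference was -0.78 (SE 0.11, limma adjusted p = 0.000407). Cmpk2, a mitochondrial nucleotide kinase and the next gene to Rsad2, differed by -0.31 (95% interval -0.58 to -0.04, limma adjusted p = 0.15) and was not called. Eif2ak2, the RNA-activated kinase PKR that shuts down translation, differed by -0.37 (SE 0.08, limma adjusted p = 0.00883). Trim30a, a brake on Toll-like receptor signalling, differed by -0.19 (limma adjusted p = 0.591) and was not called.

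**Figure D2:**
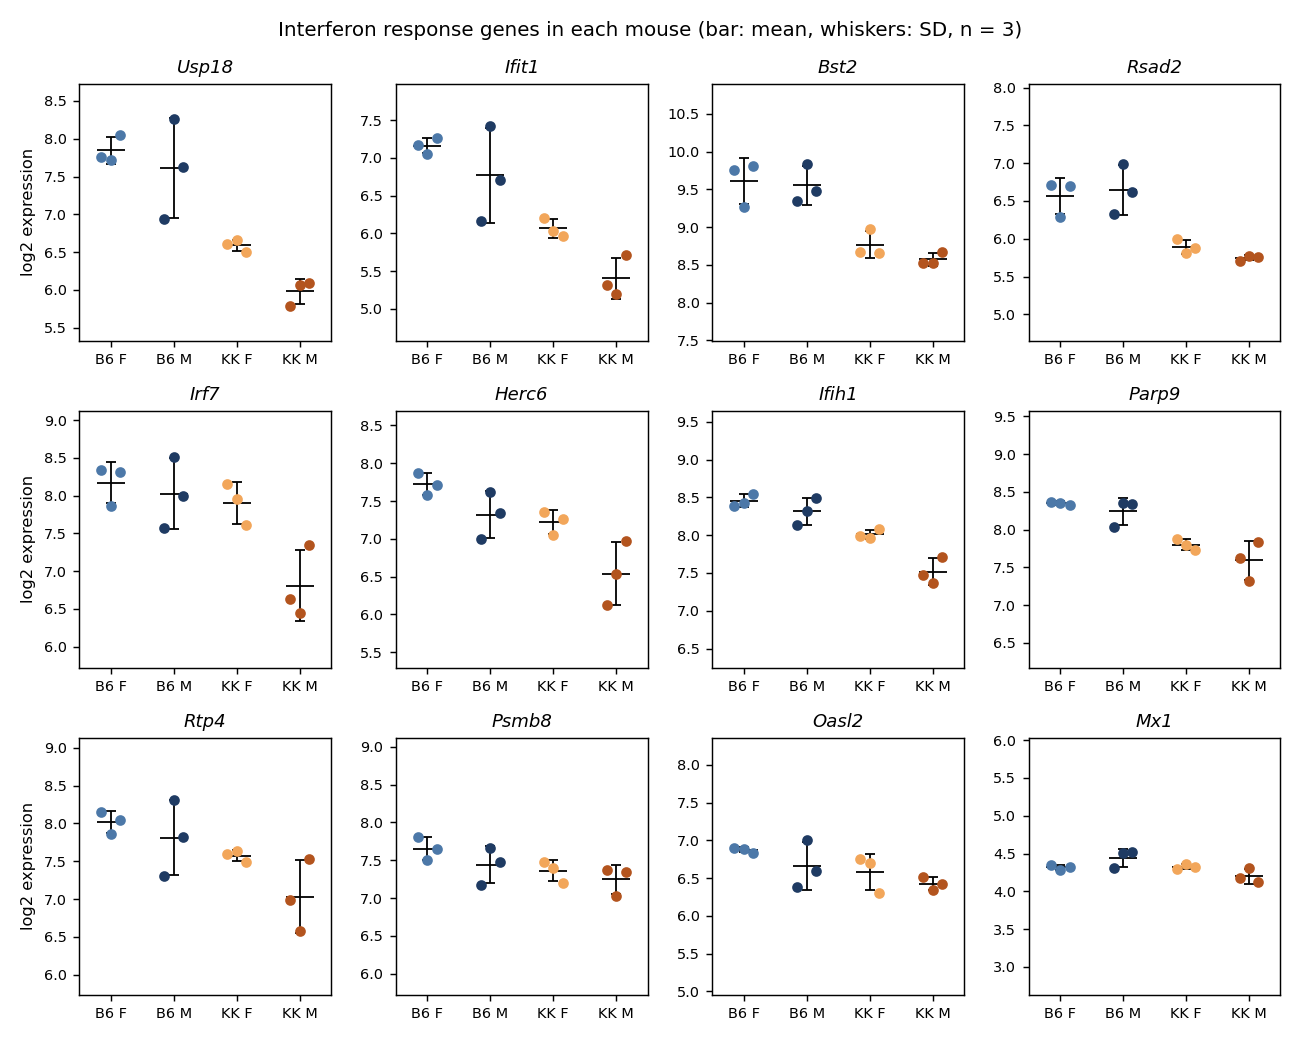
Log2 expression of 12 of the genes in each mouse (points; bars are the mean and whiskers the SD of 3 mice; B6 is C57BL/6J, F female, M male; every panel spans the same range). Usp18, Bst2, Rsad2, Ifih1 and Parp9 show no overlap between the strains, C57BL/6J male 1 is the lowest of its group and male 2 the highest in most panels, and Mx1 lies between 4.12 and 4.52 in all mice.

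Of the 3 sensors, Ifih1 was called lower, the RNA sensor MDA5. It measured 8.38, 8.43 and 8.55 in C57BL/6J females, 8.14, 8.32 and 8.49 in C57BL/6J males, 7.99, 7.96 and 8.08 in KK females and 7.48, 7.37 and 7.71 in KK males. The 3 KK males lay below the 3 KK females, and these below all C57BL/6J mice. The strain difference of -0.62 (SE 0.07) had the smallest p among the 35 genes (limma adjusted p = 0.000134). Dhx58, the partner sensor LGP2, differed by -0.35 (limma adjusted p = 0.0516), and Zbp1, which senses Z-form nucleic acid, by -0.23 (95% interval -0.48 to 0.02).

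Among the transcription factors, Irf7 and Irf9 were called lower and Stat2 was not. Irf7, the factor that amplifies interferon alpha transcription, measured 8.34, 7.86 and 8.32 in C57BL/6J females, 7.58, 8.51 and 8.00 in C57BL/6J males, 8.15, 7.96 and 7.61 in KK females and 6.62, 6.45 and 7.34 in KK males. The KK males were the low group, and the KK females overlapped both C57BL/6J groups. Over both sexes the difference was -0.74 (SE 0.18, limma adjusted p = 0.0203), and the call was lost (limma adjusted p up to 0.0551) without C57BL/6J female 1 or 3, KK female 3, or KK male 1 or 2. Irf9, the DNA-binding partner of the STAT proteins, differed by -0.58 (SE 0.13, limma adjusted p = 0.013). Stat2, which pairs with Irf9, differed by -0.09 (95% interval -0.26 to 0.07, limma adjusted p = 0.575).

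Of the 3 genes of ADP-ribosylation, a protein modification used against viruses, 2 were called lower. Parp9 measured 8.37, 8.36 and 8.32 in C57BL/6J females, 8.04, 8.35 and 8.34 in C57BL/6J males, 7.87, 7.80 and 7.73 in KK females and 7.62, 7.32 and 7.84 in KK males. The strains did not overlap, and the difference was -0.60 (SE 0.08, limma adjusted p = 0.000529). Dtx3l, the ubiquitin ligase that works in a complex with Parp9 and lies next to it, differed by -0.39 (SE 0.09, limma adjusted p = 0.013). Parp14, the next gene on the other side of Dtx3l, differed by -0.36 (95% interval -0.63 to -0.09, limma adjusted p = 0.0881).

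Among 4 other induced genes, Rtp4, a membrane protein that is induced strongly by interferon, was called lower. It measured 8.15, 7.86 and 8.05 in C57BL/6J females, 7.31, 8.31 and 7.82 in C57BL/6J males, 7.60, 7.63 and 7.49 in KK females and 6.98, 6.58 and 7.53 in KK males. C57BL/6J male 1 lay below all 3 KK females. The difference of -0.61 (SE 0.17, limma adjusted p = 0.0361) lost its call without any of 9 of the 12 mice (limma adjusted p up to 0.0827), and kept it without C57BL/6J female 2, C57BL/6J male 1 or KK male 3. Xaf1 (-0.37), Ifi27l2a (-0.23) and Ifi35 (-0.03) were not called.

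None of the 6 oligoadenylate synthetase genes was called, and 3 had an unadjusted p under 0.05, all lower in KK. These genes make, or derive from enzymes that make, the short oligoadenylates that switch on the RNA-cutting enzyme RNase L. Oasl2 had the largest negative difference among them. It measured 6.90, 6.89 and 6.84 in C57BL/6J females, 6.39, 7.00 and 6.59 in C57BL/6J males, 6.75, 6.70 and 6.31 in KK females and 6.51, 6.34 and 6.42 in KK males. Its difference was -0.26 (95% interval -0.49 to -0.04, limma adjusted p = 0.133). The others ran from -0.17 for Oasl1 and Oas1g through -0.09 for Oas1a and 0.02 for Oas3 to 0.14 for Oas2. The intervals of Oas3 (-0.14 to 0.18) and Oas2 (-0.07 to 0.34) did not reach the smallest of the 14 called differences, -0.32. All Oas3 values, at 4.73 to 5.10, lay just above the range of Y-linked probe sets in females (3.79 to 4.66). A difference in Oas3 may therefore be understated, and its narrow interval does not show equal levels.

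The Mx genes, dynamin-like GTPases that block viral nucleoproteins, were not called. Mx1 measured 4.35, 4.28 and 4.32 in C57BL/6J females, 4.31, 4.50 and 4.52 in C57BL/6J males, 4.29, 4.36 and 4.33 in KK females and 4.17, 4.31 and 4.12 in KK males. All 12 mice lay within 4.12 to 4.52, in the range that Y-linked probe sets had in females, as was the case for Oas1g (4.09 to 4.53), and the difference was -0.12 (limma adjusted p = 0.205). C57BL/6J is known to carry a disrupted Mx1 gene. Mx2 differed by -0.06 (95% interval -0.38 to 0.26).

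The 3 antigen-processing genes, which lie side by side, were not called either. Psmb8, a catalytic subunit of the immunoproteasome, measured 7.81, 7.50 and 7.65 in C57BL/6J females, 7.18, 7.67 and 7.48 in C57BL/6J males, 7.48, 7.39 and 7.21 in KK females and 7.37, 7.03 and 7.35 in KK males. The strains overlapped in males, and the difference was -0.24 (95% interval -0.45 to -0.03, limma adjusted p = 0.143). The other immunoproteasome subunit, Psmb9, differed by 0.10 (-0.06 to 0.27), and Tap1, a subunit of the peptide transporter, by -0.07 (-0.26 to 0.12).

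Of the 25 measured genes with a promoter window, the response element core was held by 3 of the 11 called lower in KK and by 6 of the 14 not called. The Oas1g and Stat2 windows shown above belong to the latter. Usp18, Parp9 and Rtp4, which were also called lower, had no window and were not searched. The GAS letters were held by 3 of the 11 (Ifit2, Eif2ak2 and Bst2) and by 2 of the 14 (Oas1a and Psmb8).

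In females alone, 6 of the 35 genes were called lower in KK, while 3.31% of all probe sets were. These were Bst2 (-0.84, SE 0.16), Usp18 (-1.26, SE 0.24), Parp9 (-0.55, SE 0.12), Ifit1 (-1.10, SE 0.24), Rsad2 (-0.67, SE 0.15) and Ifih1 (-0.44, SE 0.10), with limma adjusted p of 0.00649 to 0.0244. None was called higher, while 3.18% of all probe sets were, and 1 was higher at an unadjusted p under 0.05. That gene was Oas2, at 0.41 (95% interval 0.12 to 0.70, limma adjusted p = 0.104), which passed the threshold without KK female 3 (0.56, adjusted p = 0.0202). The count of 6 fell to 3 without C57BL/6J female 1 or 3, or KK female 2 or 3, while the Usp18 and Bst2 calls held without each mouse in turn.

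In males, 11 of the 35 were called lower in KK, while 3.06% of all probe sets were, and none was called higher (2.08% of all probe sets; none at an unadjusted p under 0.05). The 11 were the 6 genes called in females, at -1.63 (SE 0.24) for Usp18, -1.36 (SE 0.24) for Ifit1, -0.98 (SE 0.16) for Bst2, -0.90 (SE 0.15) for Rsad2, -0.80 (SE 0.10) for Ifih1 and -0.65 (SE 0.12) for Parp9, together with Irf7, Trim25, Eif2ak2, Herc6 and Dtx3l. Irf7 differed by -1.22 in males (SE 0.26, limma adjusted p = 0.0175) and by -0.27 in females (SE 0.26, limma adjusted p = 0.743). Leaving out C57BL/6J male 2 or 3, or KK male 1 or 2, left 6 calls. The Usp18, Ifit1, Bst2, Rsad2, Ifih1 and Parp9 calls held without each mouse in turn.

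The strain differences of males and females were compared directly, and none of the 35 genes was called (0.141% of all probe sets were, in either direction). At an unadjusted p under 0.05, 4 genes had a more negative strain difference in males and none a less negative one. These were Oas2 (-0.54, 95% interval -0.95 to -0.14), Irf7 (-0.96, -1.76 to -0.15), Ifih1 (-0.36, -0.67 to -0.04) and Mx1 (-0.25, -0.48 to -0.02), with limma adjusted p of 0.647 to 0.765. Ranked by p over all 21212 probe sets, in either direction, Ifih1 (limma unadjusted p = 0.0318) stood at 886 and Stat2 (0.0686) at 1781. The number of all probe sets under 0.05 lies between these ranks. A difference between the sexes in the strain effect was thus not shown for any gene. Of the 35 values, 27 were negative, with a median of -0.14, beside 0.02 over all probe sets.

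**Figure D3:**
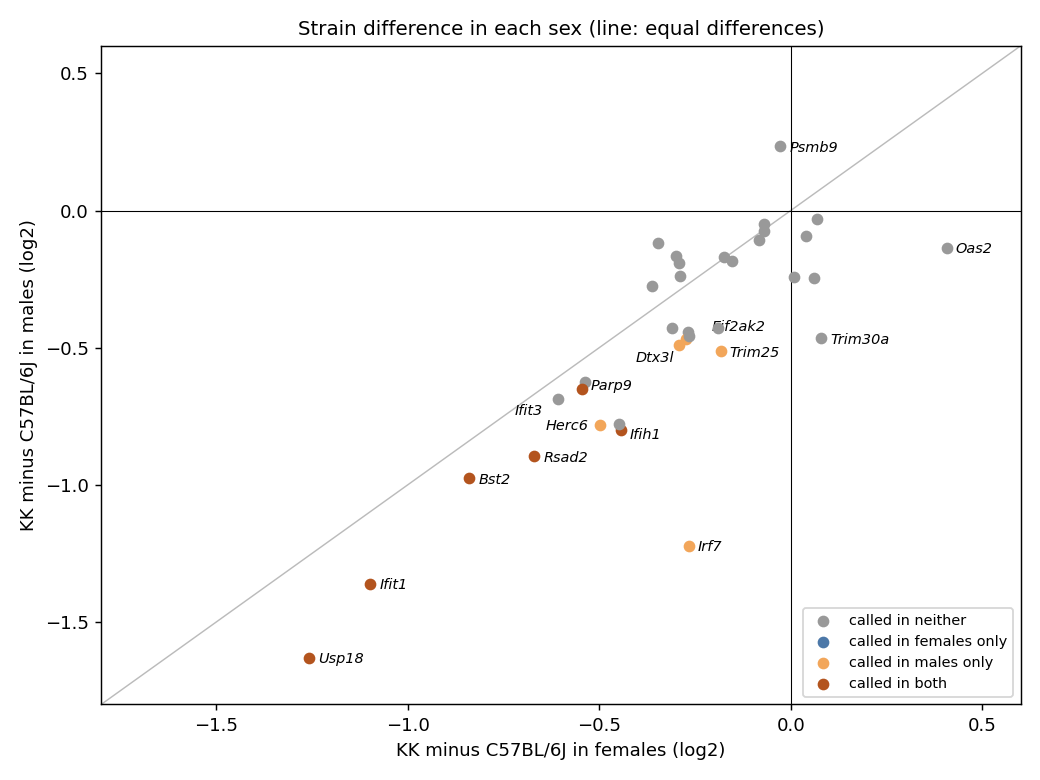
Log2 difference, KK minus C57BL/6J, in females (horizontal) and males (vertical) for the 35 genes, coloured by where they were called; the line marks equal differences. The 6 genes called in both sexes lie at the lower left, and Irf7, at -0.27 in females and -1.22 in males, lies far below the line.

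Males had lower values than females for most of the genes, but 1 passed the test. Over both strains, Ifih1 was called lower in males (-0.31, SE 0.07, limma adjusted p = 0.0353), while 2.57% of all probe sets were called lower. None was called higher in males, while 1.09% of all probe sets were, and none was higher at an unadjusted p under 0.05. In all, 31 of the 35 differences were negative, beside 41.4% of all probe sets, and 14 were lower at an unadjusted p under 0.05. The largest p of these 14, that of Rtp4 (limma unadjusted p = 0.0489), ranked 3320 among all 21212 probe sets, in either direction. Trim30a (-0.65, SE 0.16, limma adjusted p = 0.0507) and Herc6 (-0.54, SE 0.14, limma adjusted p = 0.0548) lay just past the threshold. The count was 0 without any 1 of C57BL/6J females 1, 2 and 3, C57BL/6J male 1, KK female 1 and KK males 1 and 2. Leaving out C57BL/6J male 2 gave 7 calls, none of them Ifih1, and leaving out KK male 3 gave 5. The Ifih1 call itself was lost without any of 9 of the 12 mice (limma adjusted p up to 0.0882), and was kept without C57BL/6J male 3, KK female 2 or KK male 3. Kupffer cell and macrophage markers were lower in males too, 11 of 12 called (median -0.73), as were 5 of 10 sinusoidal endothelial genes (median -0.26), and their part in the difference was not tested.

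Within KK, Ifih1 was called lower in males (-0.49, SE 0.10, limma adjusted p = 0.0312), while 1.47% of all probe sets were called lower. None was called higher (0.698% of all probe sets; none at an unadjusted p under 0.05), and 13 were lower at an unadjusted p under 0.05. The largest p of these 13, that of Rtp4 (limma unadjusted p = 0.0454), ranked 3132 among all 21212 probe sets, in either direction. Irf7 was at -1.10 (SE 0.26, limma adjusted p = 0.0544) and Trim30a at -0.92 (SE 0.23, limma adjusted p = 0.0679), and in both the 3 males lay below the 3 females. Trim30a measured 8.03, 7.69 and 7.44 in KK females and 6.58, 6.51 and 7.30 in KK males. The count was 0 without KK female 1 or 2 or KK male 1 or 2, and the Ifih1 call was also lost without KK female 3 and with only the 2 groups compared (limma adjusted p up to 0.13). Leaving out C57BL/6J male 1 gave 3 calls, C57BL/6J male 2 gave 2 and KK male 3 gave 4. Within C57BL/6J none of the 35 was called, while 1.03% of all probe sets were in either direction, and 1 was lower at an unadjusted p under 0.05.

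Macrophage markers differed between the sexes, and some differed between the strains. In C57BL/6J all 12 measured Kupffer cell and macrophage genes were lower in males (median -0.36), with none called and 2 at an unadjusted p under 0.05. In KK, 11 of the 12 were called lower in males (median -1.07), led by Vsig4 at -1.58 (SE 0.20, limma adjusted p = 0.0016). Their mean level per mouse lay between 7.50 and 7.83 in KK males, 8.39 and 9.12 in KK females, 7.93 and 8.59 in C57BL/6J males, and 8.44 and 8.65 in C57BL/6J females. In a whole liver sample, fewer cells of a type and less RNA per cell cannot be told apart. Between the strains over both sexes, 10 of the 12 markers were lower in KK (median -0.22). Of these, 3 were called, while 6.31% of all probe sets were called lower. Between the strains in males, all 12 markers were lower in KK (median -0.62), 8 of them at an unadjusted p under 0.05. The calls in males were 2, beside 3.06% of all probe sets. Between the strains in females, 7 of the 12 were higher in KK and 5 lower (median 0.14), with 1, Marco, called lower, while 29 of the 35 interferon response genes were negative (median -0.27). The female value rests in part on KK female 1, the highest of all mice at 9.12, beside 8.55 and 8.39 in KK females 2 and 3. The part of the macrophage genes in the differences of the interferon response genes, in either sex or between the sexes, was not tested.

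**Figure D4:**
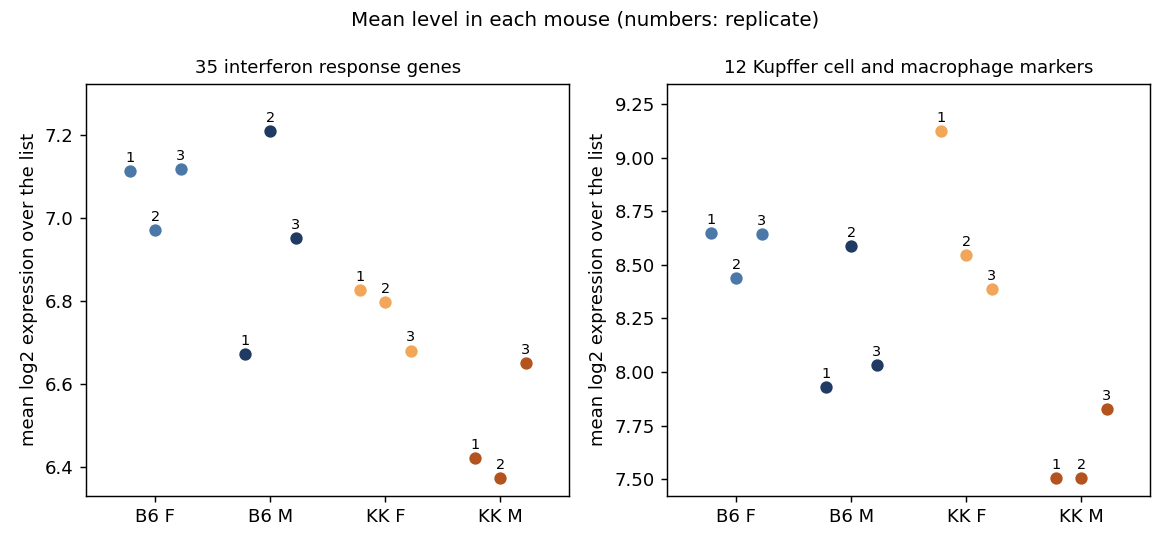
Mean log2 expression in each mouse of the 35 interferon response genes (left) and of 12 Kupffer cell and macrophage markers (right); numbers are replicate numbers, and the vertical axes differ and do not start at 0. KK females lie below C57BL/6J females on the left, and on the right KK female 1, at 9.12, lies above them and the other 2 at 8.55 and 8.39.

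Markers of other cells that respond to or make interferon were compared between the strains. Over both sexes, 6.31% of all probe sets were called lower in KK and 5.42% higher. None of 9 plasmacytoid dendritic cell genes, 11 T and NK cell genes or 7 B cell genes was called over both sexes, with medians of 0.07, 0.01 and 0.04. The group means of the T and NK cell list (4.69 to 4.75), B cell list (4.77 to 4.89) and neutrophil list (4.61 to 4.69) were low. They lay near the range of Y-linked probe sets in females (3.79 to 4.66), so a change in those cells could be missed. The plasmacytoid dendritic cell list had higher group means (5.58 to 5.64), but some of its genes were low as well. In KK males and females, Ccr9 (4.28 and 4.32) and Klk1 (4.36 and 4.30) lay in that range and Siglech (5.15 and 5.09) above it. A change in plasmacytoid dendritic cells could therefore be missed too. Of 7 dendritic cell genes, Clec9a was called lower (-0.40, SE 0.10). Of 10 sinusoidal endothelial genes, 3 were called lower in KK: Lyve1 (-0.74), Fcgr2b (-0.40) and Oit3 (-0.26). Of 7 hepatocyte genes, Apoa1 was called lower (-0.34), of 7 neutrophil genes Ngp was called higher (0.19), and of 8 stellate cell genes Rgs5 was called higher (0.90) and Col3a1 lower (-0.33). Whether these cells play a part in the differences of the interferon response genes was not tested.

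The interferon response genes also moved together among mice of 1 group, most clearly among C57BL/6J males. In C57BL/6J males, male 2 lay above the mean of its group for 35 of 35 genes, by a median of 0.23, and male 1 lay below it for 34 of 35, by a median of -0.26. Over all probe sets, 49.2% lay above the group mean in male 2 and 50.8% in male 1. The median SD of the 35 genes was 0.251 in C57BL/6J males, 0.175 in KK males, 0.121 in C57BL/6J females and 0.120 in KK females. Over all probe sets it was 0.0951, 0.108, 0.1005 and 0.105 in the same order. Among probe sets of like mean level it was 0.116, 0.128, 0.121 and 0.131, so in females the 35 genes spread about as widely. Ifit3 had the widest SD in C57BL/6J males, at 0.677, followed by Usp18 at 0.664 and Ifit1 at 0.634. Among KK males, male 3 lay above its group mean for 28 of the 35.

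**Figure D5:**
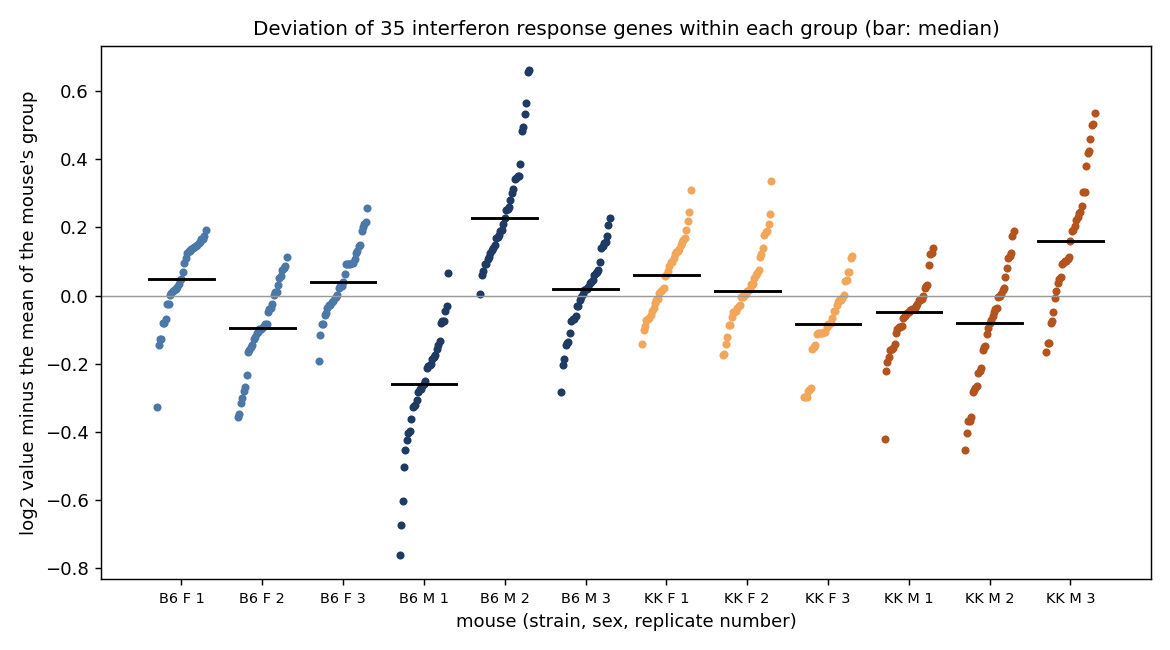
Log2 value of each of the 35 genes minus the mean of the mouse's own group, for each of 12 mice (points in order of size; the bar is the median). C57BL/6J male 1 lies almost wholly below 0 (median -0.26) and male 2 wholly above it (median 0.23), while the medians of the females lie between -0.09 and 0.06.

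Macrophage genes went with this spread in part. All 12 were above the group mean in C57BL/6J male 2, and none was in male 1 or in male 3, in which 20 of the 35 interferon response genes lay above. In KK male 3, 10 of the 12 lay above the mean of its group, by a median of 0.25. In C57BL/6J female 2, 1 of the 12 and 10 of the 35 interferon response genes did. In KK females, all 12 lay above the mean in female 1, in which 23 of the 35 interferon response genes did. Among 53 other interferon-induced genes, 47 lay above the group mean in C57BL/6J male 2 and 4 in male 1. Without C57BL/6J male 1, the median strain difference of the 35 genes in males was -0.57, and without male 2 it was -0.27, beside -0.43 with all mice. The median sex difference within C57BL/6J, -0.13 with all mice, was 0.04 without male 1.

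Genes upstream of the response were also compared between the strains over both sexes. The shares of all probe sets called lower and higher in KK there were 6.31% and 5.42%. Of 19 measured interferon genes, none was called, and 2 had an unadjusted p under 0.05, both higher in KK. The smallest adjusted p among them was that of Ifnab (0.26, limma adjusted p = 0.183). Some interferon genes lay in or below the range of Y-linked probe sets in females and may be background. Examples are Ifnb1, with means of 3.95 in KK females and 4.02 in KK males, and Ifna11 (3.59 and 3.61). Others lay above it, such as Ifna1 (7.13 and 7.32). The C57BL/6J levels were near those of KK, since the strain differences of the 19 genes over both sexes ran from -0.20 to 0.26. For genes at background, the lack of a call does not show equal levels. Of 6 interferon receptor genes, 1 was called: Ifngr2, a chain of the interferon gamma receptor, was lower in KK (-0.39, SE 0.08, limma adjusted p = 0.00553), at 7.98 to 8.32 in KK and 8.39 to 8.85 in C57BL/6J. Ifnar2, a chain of the interferon alpha and beta receptor, differed by -0.11 (limma adjusted p = 0.412). Of 16 genes of sensing upstream of interferon, 1 was called: Ddx58, the RIG-I sensor, was lower in KK (-0.30, SE 0.08, limma adjusted p = 0.0254).

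Among 12 genes of receptor signalling and its brakes, 2 were called lower and 1 higher, beside 6.31% and 5.42% of all probe sets. Irf1, an activator of interferon-induced genes, was lower in KK (-0.63, SE 0.12, limma adjusted p = 0.00396), at 7.05 to 7.75 in KK and 7.61 to 8.29 in C57BL/6J. Irf2, a factor that competes with Irf1 for its sites, was higher (0.50, SE 0.11, limma adjusted p = 0.00951), at 8.15 to 8.59 in KK and 7.53 to 8.16 in C57BL/6J. The phosphatase gene Ptpn6 was lower (-0.20, SE 0.06, limma adjusted p = 0.038).

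Of 53 other interferon-induced genes measured, 11 were called lower in KK and 1 higher, beside 6.31% and 5.42% of all probe sets. The difference was negative for 43 of them, with a median of -0.10, beside -0.32 for the 35. Gm4951, an interferon-inducible GTPase gene, measured 10.78, 10.61 and 10.92 in C57BL/6J females, 10.52, 11.12 and 10.81 in C57BL/6J males, 9.41, 8.94 and 9.23 in KK females and 8.98, 9.09 and 9.45 in KK males. The strains lay over 1 log2 unit apart at their nearest, and the difference of -1.61 (SE 0.12, limma adjusted p = 2.7e-06) was 3.05-fold lower in KK. Samd9l, an antiviral factor that blocks translation, was lower by -0.92 (SE 0.09) and Parp12 by -0.46 (SE 0.06). Ifi44l went the other way: it measured 4.32, 4.31 and 3.91 in C57BL/6J females, 4.31, 4.25 and 4.07 in C57BL/6J males, 5.96, 5.66 and 5.26 in KK females and 4.85, 4.71 and 5.45 in KK males. All 6 KK mice lay above all C57BL/6J mice, and the measured difference was 1.12 (SE 0.14, limma adjusted p = 0.000253). The C57BL/6J values lay in the range of Y-linked probe sets in females, so that 1.12 is a lower bound if they are background.

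Of 8 other genes of class I antigen processing, 1 was called higher in KK, beside 5.42% of all probe sets, and none lower. It was Tap2, the partner of Tap1 in the peptide transporter (0.19, SE 0.05, limma adjusted p = 0.0394). Guanylate-binding proteins and immunity-related GTPases, which are induced mainly by interferon gamma, were mixed. Of 15 measured, 3 were called lower and 1 higher, beside 6.31% and 5.42% of all probe sets. Iigp1 (-0.91, SE 0.13), Gbp2 (-0.63, SE 0.13) and Gbp3 (-0.84, SE 0.22) were lower. Gbp11 was higher in KK, at 10.16 to 11.16 in KK and 6.77 to 8.35 in C57BL/6J, a difference of 3.05 (SE 0.22, limma adjusted p = 2.02e-06). Genes of this family are close copies of each other, so a probe set may take up RNA of more than 1 of them. The same holds for the Oas1 and Ifit genes. The probe sequences were not analysed here, and a sequence difference between the strains under a probe would change its value as well.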

How the data were processed

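Liver RNA of 12 mice was measured on Affymetrix arrays, with biotin-labelled target made from 300 ng of total RNA per the labels' protocols. The deposited values are log2 expression values, which the authors made with RMA and the affy package per the submitters' processing notes; the versions are not given in the sources used here. Normalization and probe summary were thus the authors', and array values limit precision by the number of arrays.

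The deposited values were fitted with limma 3.58.1 under R 4.3.3 (moderated linear model, 1 mean per strain and sex, 21212 probe sets, 11.99 total degrees of freedom) for 7 comparisons. Tests were two-sided, with p-values adjusted by Benjamini and Hochberg in each comparison. The steps were tested on simulated data. Symbols came from the platform table: 18786 probe sets had 1 symbol, 6 several and 2420 none.

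Members and lists were chosen with earlier results of these data known. Values per mouse are given for members with the largest strain differences and at least 1 per role. Of each other list, up to 4 genes with the smallest adjusted p over both sexes were named. Of the marker lists, the genes called between the strains over both sexes were named, except the macrophage markers, which were given mainly by counts. Ifnb1, Ifna11, Ifna1, Ccr9, Klk1 and Siglech were named for their level, after their values were seen. Gene lists were written from general knowledge. The alternatives were other normalizations, filters, priors, array weights, a block for the replicate number, fewer groups and each array left out.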

Additional observations from a re-analysis of the deposited data

How the results depend on the processing

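No difference of a gene that was called changed direction under any alternative tried, and of 33 called differences of single genes 18 kept their call under all of them. The 14 strain calls over both sexes numbered 14 to 20 under other processing and 10 to 21 with 1 array left out. The calls of 10 genes were kept throughout, and those of Ifit2, Irf7, Rtp4 and Trim25 were lost with some arrays left out. In females the 6 lower calls numbered 6 to 9 under other processing and 3 to 6 with 1 array left out, and the count of higher calls went from 0 to 1 (Oas2) with the array interquartile range as a covariate, an alternative added after seeing the data, and ranged from 0 to 1 with 1 array left out. In males the 11 lower calls became 18 with array weights and 6 with only the 2 groups compared, and ranged from 6 to 15 with 1 array left out. For males against females over both strains the count of 1 became 2 with quantile or cyclic loess normalization, 3 with only probe sets above the median mean, with an intensity trend and robust prior, or with 1 probe set per named gene, and 6 with array weights, with a range of 0 to 7 over left-out arrays. For males against females in KK it became 2 with quantile normalization, 3 with cyclic loess, 3 above the median mean, 7 with array weights and 2 with 1 probe set per named gene, with a range of 0 to 4. Small differences that were not called changed sign under some alternatives: between the strains in 3 genes over both sexes (at most 0.06 in size), 9 in females (0.08) and 4 in males (0.12), between the sexes in 10 over both strains (0.07), 18 in C57BL/6J (0.24) and 8 in KK (0.13), and in 16 for the difference of differences (0.26). The cause was not tested. Signal over background was not available to set a limit.

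With the replicate block, the count of genes called higher in KK females went from 0 to 1 (Oas2, 0.41, adjusted p = 0.0466), and no other count moved by over 1.5 times. Whether mice of the same replicate number share a batch is not stated in the labels, and the correlations do not settle it. Deviations of same-numbered mice correlated at -0.36 to 0.48 in 18 pairs, of which 10 were over 0.1. The 36 pairs of unlike number ran from -0.51 to 0.48, and 8 of 12 mice correlated best with their own number.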

Other observations

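Genes of the wider interferon pathway also differed between the sexes, in comparisons that the strain test does not cover; the genes named here were chosen after their values were seen. Over both strains, 17 of 114 measured genes of the pathway lists were called lower in males and none higher by limma, beside 2.57% and 1.09% of all probe sets, and 2 were higher at an unadjusted p under 0.05. In the same comparison 11 of 12 Kupffer cell and macrophage markers and 5 of 10 sinusoidal endothelial genes were called lower, and their part was not tested. Samd9l was lower in males by -0.86 (SE 0.09, limma adjusted p = 0.000243), and Trim12a by -0.71 (SE 0.13, limma adjusted p = 0.00959). Ifngr1, a chain of the interferon gamma receptor, was lower by -0.51 (SE 0.11, limma adjusted p = 0.02), and Unc93b1, the chaperone of the nucleic-acid-sensing Toll-like receptors, by -0.37 (SE 0.07, limma adjusted p = 0.0117).

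Within KK, 12 of the 114 were called lower in males and 1 higher, beside 1.47% and 0.698% of all probe sets. Ifngr1 measured 8.50, 7.91 and 8.12 in KK females and 7.13, 7.44 and 7.52 in KK males, a difference of -0.81 (SE 0.15, limma adjusted p = 0.0177). Ikbke, a kinase upstream of interferon transcription, was the gene that was higher (0.55, SE 0.12, limma adjusted p = 0.0393). In the same mice 11 of 12 Kupffer cell and macrophage markers were lower in males, and their part in these differences was not tested.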
